A study of Mus musculus with 20 samples.

Results

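The genes described are the neurotrophin receptors and ligands Ntrk2, Ntrk3, Ngfr, Bdnf and Ntf3, followed across the livers of mice labelled OGTL KO or OGTL WT at 4 or 8 weeks of age. They were found by gene symbol in the platform annotation of the Clariom S Mouse array. Of the 5 symbols, 4 had a feature and were measured, out of 19505 genes with a symbol, and Ntf3 was not analysed here. The rule kept the feature with the highest mean over the 20 arrays, but each of the 4 genes had 1 feature, so measured values chose none of the features. The set itself was chosen by the large 8-week signal of Ntrk2 in earlier results of these arrays, with its related receptors and ligands added by name. The 8-week difference of Ntrk2, and its other comparisons that include 8-week arrays, are therefore given as descriptions without a p-value.

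Neurotrophins are secreted growth factors that are made as precursors and cleaved by proteases, and they are best known for the survival and wiring of neurons. BDNF and the product of Ntf5 bind the receptor tyrosine kinase TrkB, encoded by Ntrk2, while the product of Ntf3 binds mainly TrkC, encoded by Ntrk3. All of them also bind p75, the tumour necrosis factor receptor family member encoded by Ngfr, which in rodent liver is known from stellate cells. Ntrk2 gives rise to full-length TrkB and to truncated forms without the kinase domain.

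The 4 groups were 4w-KO, 4w-WT, 8w-KO and 8w-WT, each with 5 arrays from 5 mice. OGT is the O-GlcNAc transferase, which attaches a sugar to intracellular proteins, and the labels mark the knockout as one of the liver. The sources used here do not give the promoter that drove the deletion, the strain or the sex. RNA came from powdered frozen whole liver, so fewer cells of a type and less RNA per cell cannot be told apart in any result below. All values are the deposited log2 signals, in which 1 unit is a factor of 2, and group values are means ± SD with n = 5.

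Ogt itself was 8.14 ± 0.53 in 4w-KO and 9.57 ± 0.31 in 4w-WT, and it was 9.81 ± 0.21 in 8w-KO and 10.08 ± 0.20 in 8w-WT. It was lower in 4w-KO (limma adjusted p = 8.82e-05), whereas the 8-week difference of -0.27 was not called (adjusted p = 0.529). Results at 8 weeks are thus those of arrays labelled KO. Array medians ran from 5.42 to 5.58, and hepatocyte markers were far above background in every group. The skeletal muscle gene Acta1 was above 10 in 3 arrays, 4w-KO replicates 4 and 5 and 4w-WT replicate 4, and at most 6.11 in the other arrays. The titles number the arrays group after group, so effects of array order and of group cannot be told apart.

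A background level was taken from 1412 olfactory and vomeronasal receptor genes, as the 95th percentile of their group means. It was 5.04 in 4w-KO, 5.01 in 4w-WT, 5.02 in 8w-KO and 5.20 in 8w-WT. Between 41.6% and 45.4% of genes had a group mean at or below it. A gene was called when its p-value, from 1 limma fit of the 4 groups over 19505 genes, was below 0.05 after Benjamini-Hochberg adjustment.

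Ntrk2 was the only one of the 4 genes that was called in KO against WT liver at either age. Its signal was high in the livers labelled KO at 4 weeks and higher still at 8 weeks, while both groups of WT livers stayed near the background level. Called genes made up 10.2% of all genes at 4 weeks and 6.58% at 8 weeks. The count of 1 among 4 genes at 8 weeks was known beforehand, and nothing is read from it. The same gene alone was counted for the change of the KO difference between the ages, where 3.05% of all genes were called. That change includes the 8w-KO arrays, so nothing is read from this count either.

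The receptor gene Ntrk2 (feature TC1300000718.mm.2) had signals of 7.55, 7.85, 8.67, 8.87 and 7.81 in the 5 arrays of 4w-KO. In 4w-WT the signals were 5.21, 5.07, 6.64, 6.03 and 5.47. The groups did not overlap, as the lowest KO array lay 0.91 above the highest WT array. Groups were separate in this way for 8.55% of all genes at 4 weeks. The means were 8.15 ± 0.58 in 4w-KO and 5.68 ± 0.65 in 4w-WT. Their difference of 2.47 (SE 0.32, 95% interval 1.79 to 3.14) made the KO signal 5.53 times that of WT. The rise passed the test (limma adjusted p = 3.30e-05), and a two-sided exact permutation test gave 0.00794, the smallest p that 5 against 5 arrays allow. It ranked 32 among the positive differences of the 19505 genes at 4 weeks.

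Without the 3 arrays in which Acta1 was high, the difference of Ntrk2 was 2.43 (adjusted p = 0.000517), and over the 9 other settings tried it had adjusted p-values from 1.82e-05 to 0.000817. The highest signal of Ntrk2 in 4w-KO, 8.87, and the second highest in 4w-WT, 6.03, were in arrays with muscle transcripts. The highest in 4w-WT, 6.64, was in replicate 3, where Acta1 was 6.11. Leaving out any single array gave differences from 2.29 to 2.71, and all of them were called.

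In the arrays labelled 8w-KO the Ntrk2 signals were 10.85, 10.03, 10.47, 10.18 and 10.80, and in 8w-WT they were 4.96, 5.38, 6.61, 5.50 and 5.33. A gap of 3.42 separated the lowest array of 8w-KO from the highest of 8w-WT. Groups were separate for 6.1% of all genes at 8 weeks. The mean was 10.47 ± 0.36 in 8w-KO and 5.56 ± 0.62 in 8w-WT, a difference of 4.91 (SE 0.32), with rank 4 among the positive differences of all genes. The KO signal was thus 30.1 times that of WT on the deposited scale.

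Across the 4 groups the order of the Ntrk2 signal was 8w-KO, 4w-KO, 4w-WT and 8w-WT. The lowest array of 8w-KO lay 1.16 above the highest array of 4w-KO, while 9.47% of all genes had separate groups in this comparison. The means of these groups differed by 2.32 (SE 0.32). The last 2 groups in the order overlapped over most of their range. Between 8w-WT and 4w-WT the difference was -0.13 (SE 0.32, 95% interval -0.80 to 0.54). The 8w-WT arrays entered the 8-week difference that was known when Ntrk2 was chosen, so this too is a description. Thus the Ntrk2 signal was higher at 8 weeks in KO liver, while the means of WT liver differed by less than the SE. The KO difference at 8 weeks exceeded that at 4 weeks by 2.44 (SE 0.46).

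The platform annotation pairs the Ntrk2 feature with 3 RefSeq transcripts. The signal therefore does not say whether the full-length receptor or a truncated form was measured.

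**Figure D1:**
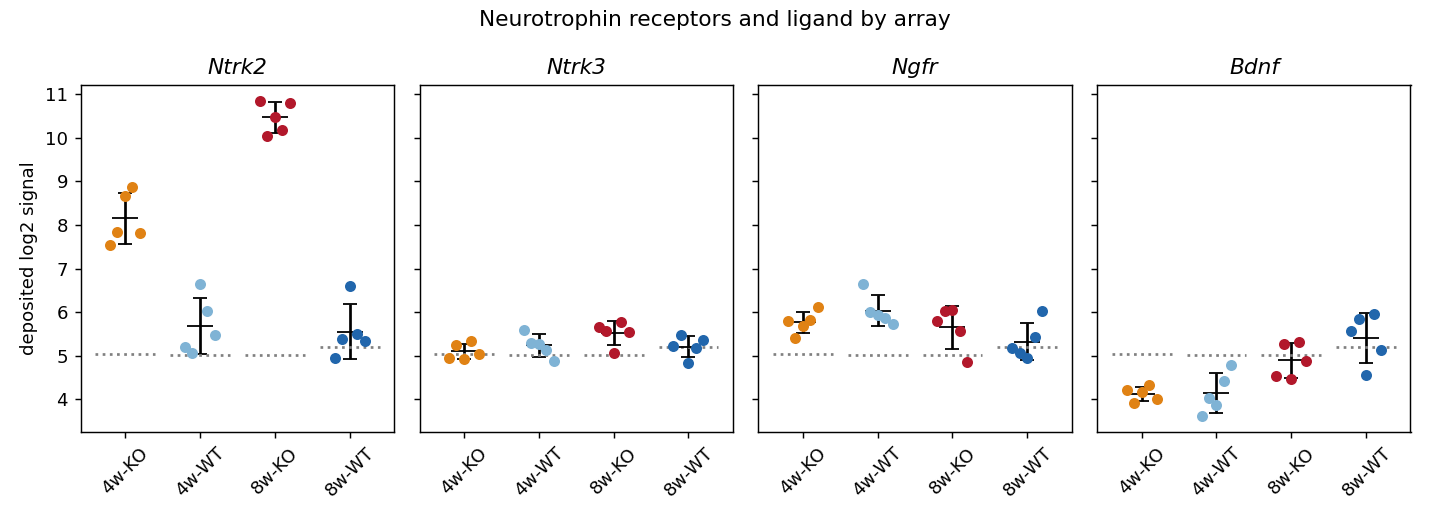
Deposited log2 signal of Ntrk2, Ntrk3, Ngfr and Bdnf in each of the 20 arrays (points), with group means and SD (bars) and the background level of each group (dotted lines). Ntrk2 lies between 7.55 and 8.87 in 4w-KO and between 10.03 and 10.85 in 8w-KO, above every WT array. The other 3 genes lie between 3.62 (Bdnf in 4w-WT) and 6.65 (Ngfr in 4w-WT) over all groups.

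The other Trk receptor gene, Ntrk3, was close to background throughout and was not called in any comparison. Its signals were 4.96, 5.24, 4.92, 5.34 and 5.04 in 4w-KO, and 5.60, 5.29, 5.27, 5.14 and 4.89 in 4w-WT. In 8w-KO they were 5.66, 5.57, 5.07, 5.77 and 5.54, and in 8w-WT 5.22, 5.47, 4.83, 5.18 and 5.36. The groups overlapped at both ages, although 4 arrays of 8w-KO were above the highest WT array of that age. The difference was -0.14 (SE 0.16, adjusted p = 0.690) at 4 weeks and 0.31 (SE 0.16, 95% interval -0.02 to 0.64, adjusted p = 0.285) at 8 weeks by limma. The upper bounds of both 95% intervals, 0.19 and 0.64, were below the 4-week difference of Ntrk2.

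Ntrk3 was also higher in 8w-KO than in 4w-KO by 0.42 (SE 0.16), but this missed the threshold (limma adjusted p = 0.0774, exact permutation p = 0.0238). It was called without 8w-KO replicate 3 (0.54, adjusted p = 0.0216). In 23 of the 25 pairs of arrays the 8w-KO array had the larger signal. Between 8w-WT and 4w-WT the difference was -0.03 (SE 0.16, adjusted p = 0.953).

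Ngfr, the gene of the p75 receptor, had signals of 5.80, 5.42, 5.68, 5.82 and 6.11 in 4w-KO, against 6.65, 6.01, 5.93, 5.86 and 5.74 in 4w-WT. In 8w-KO they were 5.79, 6.02, 6.06, 5.57 and 4.85, against 5.17, 5.07, 4.94, 5.43 and 6.02 in 8w-WT. All 4 group means were above background. The KO and WT ranges overlapped at both ages. The difference of -0.27 (SE 0.23) at 4 weeks and that of 0.33 (SE 0.23) at 8 weeks were not called (limma adjusted p = 0.563 and 0.474). The 95% intervals ran from -0.75 to 0.21 and from -0.15 to 0.81.

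With age, Ngfr was lower in 8w-WT (5.33 ± 0.43) than in 4w-WT (6.04 ± 0.36). The difference of -0.71 (SE 0.23) was not called (limma adjusted p = 0.0592, exact permutation p = 0.0397). It was called when 8w-WT replicate 5, the array with the highest Ngfr signal of its group, was left out (-0.89, adjusted p = 0.0163). In the livers labelled KO the corresponding difference was -0.11 (SE 0.23, adjusted p = 0.828).

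The ligand gene Bdnf was not above background in 4w-KO, 4w-WT or 8w-KO, and only its 8w-WT mean exceeded the level. Its signals were 4.21, 3.91, 4.18, 4.32 and 4.01 in 4w-KO and 3.62, 4.04, 3.88, 4.42 and 4.78 in 4w-WT. The 4w-KO range lay inside that of 4w-WT, with a difference of -0.02 (SE 0.25, limma adjusted p = 0.972). In 8w-KO the signals were 4.54, 5.28, 4.46, 5.32 and 4.89, against 5.57, 5.84, 4.55, 5.95 and 5.14 in 8w-WT. Bdnf thus had a lower mean in 8w-KO (4.90 ± 0.40) than in 8w-WT (5.41 ± 0.57), but the groups overlapped. The difference of -0.51 (SE 0.25, 95% interval -1.03 to 0.01) was not called (adjusted p = 0.265), and with the background level in place of the 8w-KO mean it was -0.39.

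Bdnf was the only one of the 4 genes called between the ages in WT liver, where 8.94% of all genes were called. It was higher in 8w-WT (5.41 ± 0.57) than in 4w-WT (4.15 ± 0.46), by 1.26 on the measured means (SE 0.25, limma adjusted p = 0.00186, exact permutation p = 0.0159). Since the 4w-WT mean was not above background, the rise was at least 0.40, counted from the 4w-WT level of 5.01. The level of 8w-WT was higher, 5.20, and the 8w-WT signals of 4.55 and 5.14 lay below it. The larger signal was in 8w-WT in 24 of 25 pairs of arrays. Leaving out any single array of either group kept the call, with differences from 1.13 to 1.48.

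In KO liver Bdnf was likewise called higher in 8w-KO (4.90 ± 0.40) than in 4w-KO (4.13 ± 0.16), with a difference of 0.77 (SE 0.25, limma adjusted p = 0.0409). Both means were at or below background, so no fold is given. Of all genes 14.6% were called in this comparison. The call was lost without 4w-KO replicate 1, 2, 3 or 5 or 8w-KO replicate 2, 4 or 5 (adjusted p from 0.0609 to 0.107). It was also lost without the 3 arrays with muscle transcripts (0.0895) and with quantile normalization repeated (0.053). The age differences in KO and in WT were not shown to differ, as the change between them was -0.49 (SE 0.35, limma adjusted p = 0.551).

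The arrays labelled 8w-KO had the largest Ntrk2 signals of all 20, and the mean of Bdnf there was not above background, with single arrays on both sides of it. The 8w-WT arrays had the largest Bdnf mean and an Ntrk2 mean of 5.56, beside a background level of 5.20.

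**Figure D2:**
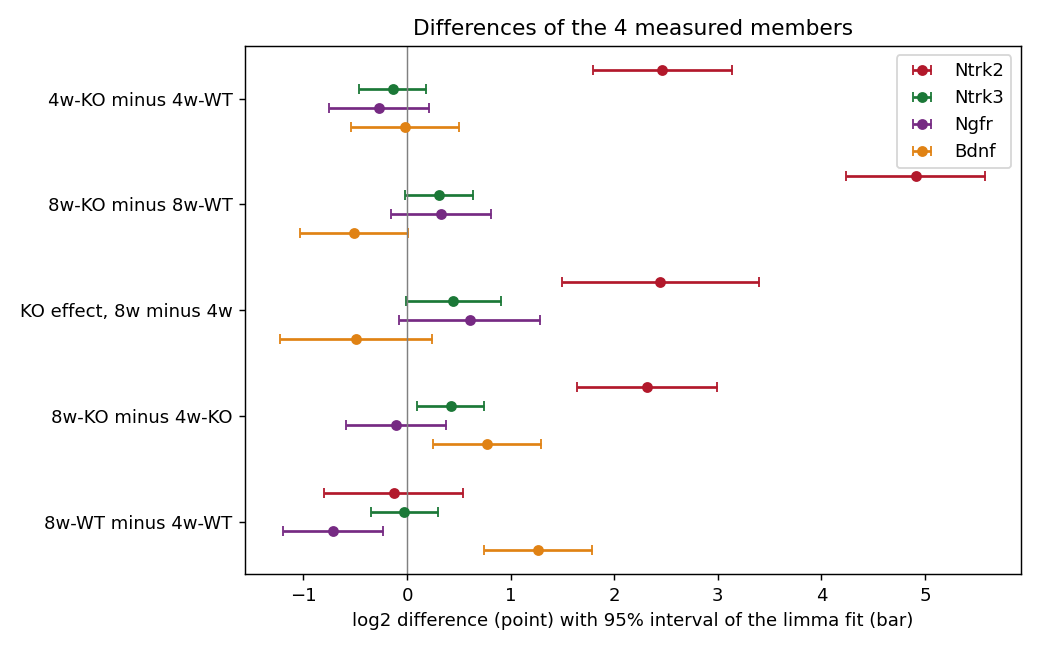
Log2 differences of Ntrk2, Ntrk3, Ngfr and Bdnf (points) with 95% intervals from the limma fit (bars) in 5 comparisons, KO over WT or 8 weeks over 4 weeks. Ntrk2 stands at 2.47 and 4.91 in the KO against WT comparisons, while the intervals of the other 3 genes in these comparisons include 0. Intervals of Ntrk2 that involve 8-week arrays are descriptive.

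Whole liver holds several cell types, and markers of some of them differed between the same groups as Ntrk2. The counts of each marker list stand beside these shares of all genes. At 8 weeks 4.94% of all genes were called higher in KO and 1.65% lower. At 4 weeks 4.7% were called higher and 5.48% lower. Cholangiocytes line the bile ducts. At 8 weeks 9 of 11 measured cholangiocyte markers were higher in KO, 0 lower and 2 neither, among them Tspan8 (5.77), Anxa13 (2.95) and the adhesion gene Epcam (4.00, at least 3.81). The mean of this list over its 11 genes ran from 7.65 to 9.93 in 8w-KO and from 5.66 to 6.68 in 8w-WT. At 4 weeks 1 of the 11, Tspan8 (2.51, limma adjusted p = 0.0177), was higher. The list mean then ran from 6.55 to 7.58 in 4w-KO and from 6.10 to 6.95 in 4w-WT. These ranges overlapped through 4w-KO replicate 5 (6.55) alone, as the next lowest KO array was at 7.09. Of the 11 differences at 4 weeks 8 were positive, with a median of 0.38. The Tspan8 call at 4 weeks was lost without 4w-KO replicate 4 or 4w-WT replicate 5.

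Stellate cells store retinoids and can turn into matrix-making myofibroblasts. Of 13 stellate markers 5 were higher in KO at 8 weeks, 0 lower and 8 neither, led by the receptor gene Pdgfrb (2.74) and the transcription factor gene Tcf21 (2.30). Their list mean ran from 7.65 to 8.26 in 8w-KO and from 6.92 to 7.50 in 8w-WT. At 4 weeks 0 were higher and 1, Colec11, was lower (-0.56, limma adjusted p = 0.0425), a call lost without any of 6 single arrays, without the arrays with high Acta1 and with eBayes with trend and robust. The list mean ran from 7.71 to 8.43 in 4w-KO and from 7.80 to 8.56 in 4w-WT. The myofibroblast and portal fibroblast list had 7 higher, 0 lower and 8 neither of 15 at 8 weeks, with the matrix genes Lum (3.91) and Col3a1 (3.37) foremost. At 4 weeks its count was 2 higher, 0 lower and 13 neither, namely Timp1, which was not above background, and Thy1 (0.57, at least 0.13). The call of Timp1 was lost without any of 9 single arrays and that of Thy1 without any of 7, and both were lost without the arrays with high Acta1 or with array medians set equal. The list means overlapped between the groups (6.91 to 7.93 in 4w-KO, 6.26 to 7.49 in 4w-WT), although all 15 differences were positive, with a median of 0.54.

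Macrophage markers numbered 3 higher, 0 lower and 8 neither of 11 at 4 weeks, with Gpnmb (1.63, at least 0.91), Cd5l (1.14) and Ccr2 (1.15), of which Ccr2 was not called without the arrays with high Acta1. Their list mean ran from 8.01 to 8.25 in 4w-KO and from 7.46 to 7.79 in 4w-WT, without overlap. At 8 weeks 6 were higher, 0 lower and 5 neither, led by Lyz2 (2.39) and Gpnmb (1.67, at least 1.62). Differences were positive for 7 of the 11. Those of Timd4 (-0.76), Clec4f (-0.68), Vsig4 (-0.39) and Cd5l (-0.04) were negative and not called. The list mean ran from 7.24 to 8.17 in 8w-KO and from 7.15 to 7.38 in 8w-WT. Of 9 hepatocyte markers 1, Cyp2e1, was lower at 4 weeks (-0.60) and 0 were called at 8 weeks. Its list mean ran from 17.93 to 18.25 in 4w-KO and from 18.28 to 18.38 in 4w-WT, without overlap. Of 11 endothelial markers Stab2 was lower at 4 weeks (-1.07) and Pecam1 higher at 8 weeks (0.81), a call lost without any of 7 single arrays. Of 8 lymphocyte markers Cd3e was higher at 4 weeks without being above background and Cd4 lower at 8 weeks (-0.79). None of 10 skeletal muscle markers was called at either age.

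Neurons and Schwann cells, which carry Trk receptors in nerves, left little signal. Of 16 markers of nerve fibres and glia, 15 were not above background in 4w-KO or 8w-KO, and 14 in 4w-WT or 8w-WT. The glial genes Sox10 and S100b and the neuronal genes Snap25 and Stmn2 were among them, and the exceptions were Syp in all groups and Th in WT. None of the 16 was called by limma in KO against WT at either age. Their list mean ran from 4.06 to 4.13 in 4w-KO, from 3.97 to 4.15 in 4w-WT, from 3.96 to 4.09 in 8w-KO and from 4.03 to 4.17 in 8w-WT.

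Within the arrays labelled 8w-KO, Ntrk2 ran from 10.03 to 10.85. This range was narrower than those of the cholangiocyte (7.65 to 9.93), fibroblast (6.50 to 7.65) and macrophage (7.24 to 8.17) list means. It was wider than that of the stellate list mean (7.65 to 8.26). The array with the highest cholangiocyte mean, replicate 5 at 9.93, had an Ntrk2 signal of 10.80. The array with the lowest, replicate 3 at 7.65, had an Ntrk2 signal of 10.47. Replicate 2, with a cholangiocyte mean of 8.87, had the lowest Ntrk2 signal (10.03). Replicate 1, at 8.58, had the highest (10.85), and replicate 4, at 7.75, had 10.18. The part of bile duct, stellate, fibroblast and macrophage content in the Ntrk2 difference was not tested.

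**Figure D3:**
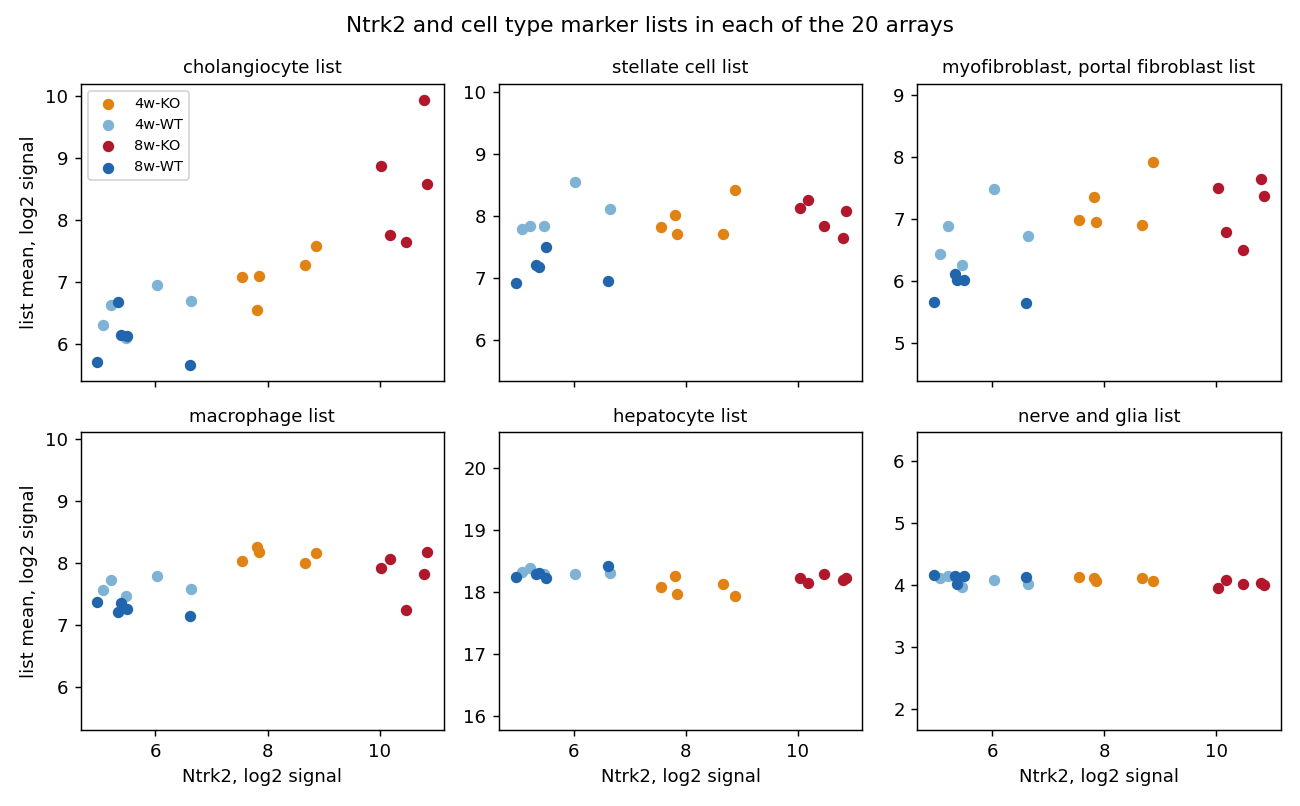
Ntrk2 log2 signal (horizontal axis) and the mean log2 signal of 6 cell type marker lists (vertical axes, all of the same height) in each of the 20 arrays, coloured by group. The 4w-KO arrays lie to the right of all WT arrays. Beside 4w-WT, their levels overlap for the stellate and fibroblast lists, and for the cholangiocyte list through 4w-KO replicate 5 alone. Their levels are higher for the macrophage list and lower for the hepatocyte list, while the nerve and glia list stays near 4 in all arrays.

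Genes with a profile like that of Ntrk2 were found by the root mean square difference between log2 profiles, each centred on its own mean over the 20 arrays. The nearest of 19504 genes were Bicc1 (0.93 log2 units), Myof (0.95), Glipr1 (0.97), H2-Aa (0.99) and Tspan8 (1.0), against a median of 2.11 over all genes. Bicc1 encodes an RNA-binding protein, Myof a membrane repair protein of the ferlin family and H2-Aa a chain of MHC class II. All 5 had their highest group mean in 8w-KO. The match used all 20 arrays and Ntrk2 peaks in 8w-KO, so this follows from how the 5 were found. Their 4-week values entered the match as well. At 4 weeks the KO difference was 2.51 for Tspan8, 1.88 for H2-Aa, 1.75 for Glipr1, 1.32 for Myof and 1.11 for Bicc1. That of Ntrk2 (2.47) was thus closest to that of Tspan8, whose 4w-KO and 4w-WT arrays overlapped.

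**Figure D4:**
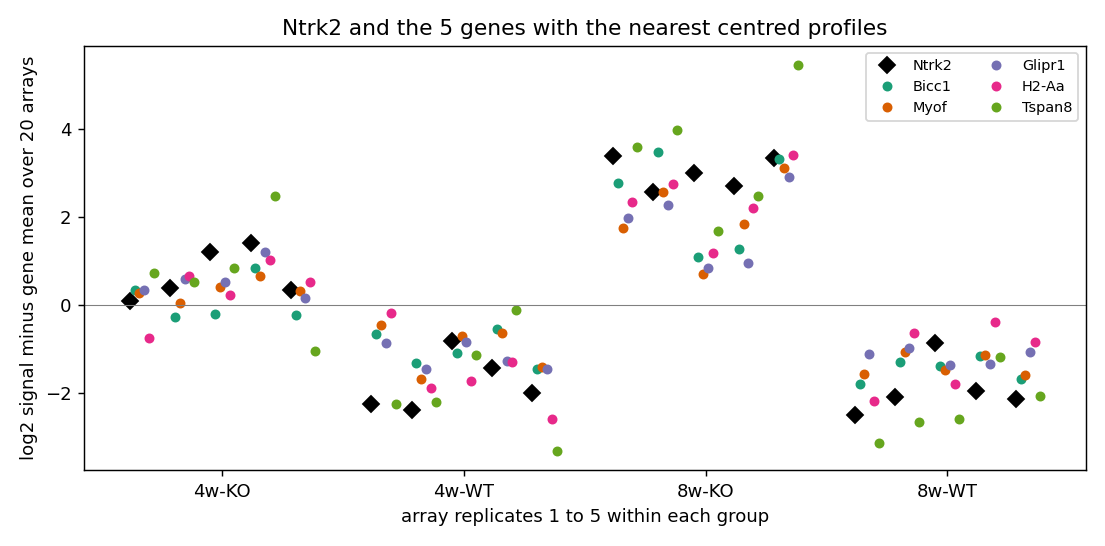
Log2 signal minus the gene's mean over 20 arrays (vertical axis) for Ntrk2 (black diamonds) and the 5 genes with the nearest centred profiles (coloured circles), array by array within the 4 groups. All 6 genes have their highest group mean in 8w-KO, which the search for profiles like that of Ntrk2 favours. The spread among the 8w-KO arrays is narrower for Ntrk2 than for Tspan8.

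The rest of the neurotrophin pathway was followed in 5 lists with 95 measured genes of 111. At 4 weeks 5 were higher in KO, 6 lower and 84 neither, where 4.7% of all genes were higher and 5.48% lower. At 8 weeks 11 were higher, 2 lower and 82 neither, where 4.94% of all genes were higher and 1.65% lower. Setting the array medians equal gave 3 higher and 8 lower at 4 weeks, and 7 higher and 3 lower at 8 weeks. The median difference over the 95 genes was 0.02 at 4 weeks and 0.04 at 8 weeks, beside 0.00 and -0.04 over all genes. Without the 3 arrays with muscle transcripts, 2 were higher and 6 lower at 4 weeks. The 4-week count of 11 became 4 without 4w-WT replicate 2, 6 without 4w-WT replicate 5 and 7 without 4w-KO replicate 3 or 4. The 8-week count of 13 became 8 without 8w-KO replicate 2.

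Among the other ligands and the proteases that process them, Ntf5, the other TrkB ligand gene, was not above background in any group. Its means were 3.83 ± 0.07 in 4w-KO, 3.80 ± 0.11 in 4w-WT, 3.81 ± 0.13 in 8w-KO and 4.05 ± 0.18 in 8w-WT. Plat, which encodes the plasminogen activator that starts cleavage of the BDNF precursor by plasmin in brain, was higher in 8w-KO (5.94 ± 0.39) than in 8w-WT (4.53 ± 0.28), by 1.42 or at least 0.75 (limma adjusted p = 1.72e-05). Plau, the gene of a related activator, was called higher at 8 weeks (0.70, adjusted p = 0.0430) although neither of its 8-week means exceeded the background. At 4 weeks the plasminogen gene Plg fell by 0.44 (adjusted p = 0.0250) and Pcsk6, a proprotein convertase gene, fell by 0.57 (adjusted p = 0.0443). The list of 12 genes had 0 higher and 2 lower at 4 weeks, and 2 higher and 0 lower at 8 weeks. The calls of Plau, Plg and Pcsk6 were each lost without any of at least 5 single arrays.

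Of 15 receptor partners 2 were higher and 0 lower at 4 weeks, and 4 were higher and 1 lower at 8 weeks. Adam17, the protease that sheds p75, was higher in KO at 4 weeks (11.30 ± 0.26 against 10.59 ± 0.23 in WT, limma adjusted p = 0.00526) and at 8 weeks (10.66 ± 0.30 against 10.05 ± 0.18 in WT, adjusted p = 0.0209). Bex3, whose product binds p75, rose at 8 weeks by 1.19 (adjusted p = 7.97e-05) and Sorl1, a sorting receptor gene, by 1.07 (adjusted p = 0.00267). Maged1, another p75 partner gene, was called higher at both ages (0.55 and 0.53), but each call was lost without any of 5 or more single arrays. Sorcs1 was called lower at 8 weeks (-0.57), with both means below background, a call lost without 8w-KO replicate 1 or 8w-WT replicate 4 and with the replicate block within age. The 8-week call of Adam17 was lost without 8w-KO replicate 2 or 5 or 8w-WT replicate 5. It was also lost with array medians set equal and with the replicate block within age. Sort1, the co-receptor of p75 for neurotrophin precursors, was 9.33 ± 0.19 in 4w-KO and 9.53 ± 0.22 in 4w-WT, and it was called at neither age.

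Of 32 adaptors, kinases and GTPases below Trk receptors 2 were higher and 3 lower at 4 weeks, and 2 were higher and 0 lower at 8 weeks. Plcg1, the phospholipase that binds activated Trk receptors, was 8.24 ± 0.22 in 4w-KO and 9.01 ± 0.31 in 4w-WT (difference -0.76, limma adjusted p = 0.0106). The GTPase gene Rap1b was higher in 4w-KO by 0.59 (adjusted p = 0.00150). Pik3r1 (-0.51) and Nras (0.41) were called at 4 weeks as well, though each call was lost without any of 7 single arrays. Both calls were also lost without the arrays with high Acta1 and with the replicate block within age. At 8 weeks the kinase gene Rps6ka3 rose by 0.80 (adjusted p = 0.00405) and the adaptor gene Shc2 by 0.59, or at least 0.41 (adjusted p = 0.00941). Of 21 genes that respond to ERK signalling, which many receptors share, 1 was higher at 4 weeks and 2 at 8 weeks, and 0 were lower. They were Mcl1 (0.62) at 4 weeks, and Spry1 (1.01, at least 0.52) and Spred1 (0.60), which encode inhibitors of the pathway, at 8 weeks. The Mcl1 call was lost without the arrays with high Acta1 or without any of 4 single arrays. That of Spred1 was lost without any of 7 single arrays, with array medians set equal or with only the compared groups in the fit. Both calls were lost with the replicate block within age.

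Among 15 genes of other neurotrophic families, 0 were higher and 1 lower at 4 weeks, and 1 was higher and 1 lower at 8 weeks. Lifr, a receptor gene shared by leukaemia inhibitory factor and ciliary neurotrophic factor, was 13.22 ± 0.18 in 4w-KO and 14.56 ± 0.27 in 4w-WT. At 8 weeks it was 13.93 ± 0.18 in KO and 14.82 ± 0.47 in WT. It thus fell by 1.34 at 4 weeks (limma adjusted p = 6.07e-05) and by 0.89 at 8 weeks (adjusted p = 0.00408). Gfra2, the receptor gene for neurturin, was called higher at 8 weeks (1.35, at least 0.66, limma adjusted p = 0.0295). The Gfra2 call was lost without 8w-KO replicate 2 or 8w-WT replicate 5, and with only the compared groups in the fit.

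**Figure D5:**
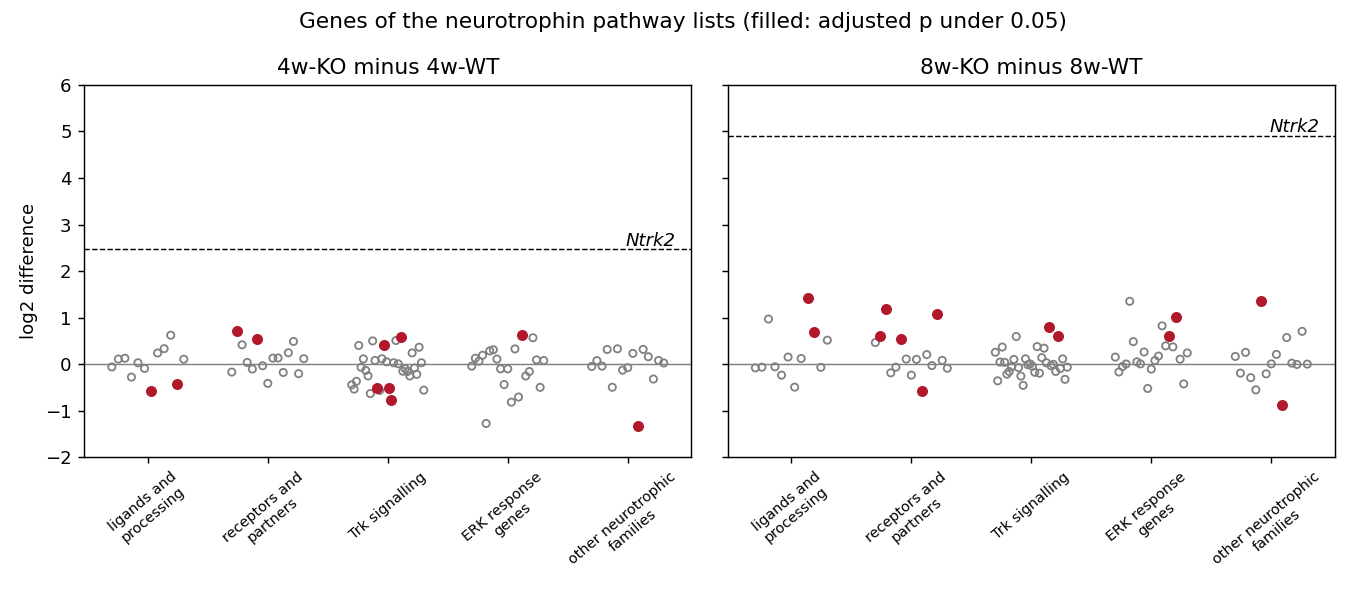
Log2 difference of KO over WT at 4 weeks (left) and 8 weeks (right) for the 95 measured genes of 5 neurotrophin pathway lists, with filled points for genes at an adjusted p under 0.05 by limma and open points for the others. The dashed line is the difference of Ntrk2, 2.47 at 4 weeks and 4.91 at 8 weeks.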

How the data were processed

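Total RNA of 20 mouse livers was hybridised to Clariom S Mouse arrays. Per the submitters' processing notes, the tools were Affymetrix Expression Console and RMA (the sources used here give no versions). What the authors deposited are log2 signals, and no further scaling was applied to them. They reach 19.8, and 254 to 288 features an array exceed 16, the log2 ceiling of a 16-bit scanner, so the absolute scale is not settled. Of 22206 features, 19572 were paired with 1 gene symbol, and the other 2634 entered no test of genes. Where a symbol had several features, as 55 did, the one with the highest mean was kept, which left 19505 genes. Detection p-values and image files were not used here, and the number of arrays limits the precision.

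The 4 group means were estimated in 1 model (limma 3.58.1, R 4.3.3, moderated by eBayes, residual degrees of freedom 16). P-values were adjusted over all 19505 genes. For the members, 20 differences were computed (4 genes in 5 comparisons). KO against WT at 4 and at 8 weeks use separate arrays, but the age comparisons and the difference between ages share them. Permutation tests were exact and two-sided. The background rule was chosen knowing the results, and "at least" means that it replaced a group mean below it.

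The members and the gene lists were chosen with earlier results of these data known. Named genes are the members, Ogt, up to 4 called genes of each pathway list and up to 3 of each marker list at each age by adjusted p, and the 5 genes nearest to Ntrk2. Ntf5, Sort1, the nerve marker genes and the macrophage markers Timd4, Clec4f and Vsig4 were named after their values were seen. Replicate numbers of the titles were checked for pairing. Deviations of same-numbered arrays correlated between -0.15 and 0.48 in 4w-KO and 4w-WT, with 4 of 5 pairs over 0.1, and between -0.18 and 0.14 at 8 weeks, with 1 of 5. The highest value, 0.48, was that of replicate 4, where Acta1 was above 10 in both 4-week arrays. The main fit does not treat the samples as pairs, although most 4-week values were positive. A fit with a replicate block within age is given as an alternative. Alternatives were 3 on scaling and filters (array medians set equal, quantile normalization repeated, the dimmest 25% of genes left out), others on the fit, and leaving out each array. Of the listed genes, those without a feature were not analysed here.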

Additional observations from a re-analysis of the deposited data

Results flagged for a closer look

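The difference between ages of the KO against WT difference was looked at in 25 genes. These were the members, Ogt and the called genes named from the pathway lists. It was called for 4 of them, where 3.05% of all genes were called. Apart from the members and Ogt, the 25 were kept because they were called in KO against WT at 4 or 8 weeks. Such a choice favours a change between the ages, so nothing is read from the count of 4. Over all 95 measured pathway genes the change was called higher for 2 and lower for 0. Marker genes were not among the 25. The change was called positive for 4 of 13 stellate and 4 of 11 cholangiocyte markers, and called for at most 1 gene of each other marker list. The KO difference at 8 weeks exceeded that at 4 weeks by 2.44 for Ntrk2, which was chosen with its 8-week signal known. For Ogt the change was 1.16 (limma adjusted p = 0.0307), a call lost without any of 7 single arrays. Its KO difference was negative at both ages and smaller in size at 8 weeks (-1.43 at 4 weeks, -0.27 at 8 weeks). For Rps6ka3 the change was 0.90 (adjusted p = 0.0400). For Plat, the measured means gave 1.08 (adjusted p = 0.0170), but only its 8w-KO mean was above background, so the size of this difference is not settled.

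Single arrays lay far from the others of their group in 7 of 100 groups of 5 tested over the same 25 genes, and chance gives about 1 in 20. None of these arrays concerned Ntrk2, Ntrk3, Ngfr or Bdnf. In 8w-KO, Mcl1 was 12.47 in replicate 5 against 11.91 in the next array, and Maged1 was 10.58 in replicate 3 against 10.93. In 8w-WT, Maged1 was 10.74 in replicate 1 against 10.36, and Plat was 4.04 in replicate 2 against 4.58. Also in 8w-WT, Lifr was 14.01 in replicate 4 against 14.87, and Gfra2 was 3.84 in replicate 5 against 4.65. In 4w-WT, Bex3 was 6.10 in replicate 2 against 6.62.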

How the results depend on the processing

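The 4-week call of Ntrk2 in KO against WT was kept under the 9 other settings, with differences from 2.39 to 2.50, and without any single array. In 8w-KO against 4w-KO 14.6% of all genes were called. Ntrk2, chosen by its 8-week signal, is counted there without being read as a result. The count of members called in this comparison, Ntrk2 and Bdnf, was 2. It was 1 with quantile normalization repeated, without the arrays with Acta1 above 10 and with the replicate block across ages within genotype, an alternative chosen after seeing the data (Bdnf adjusted p = 0.0503), and from 1 to 3 on leaving out single arrays. In 8w-WT against 4w-WT the count of 1 was 2 with array weights, where Ngfr was added (-0.75, limma adjusted p = 0.0279), and from 1 to 2 on leaving out single arrays. The pathway count ran from 4 to 11 at 4 weeks and from 8 to 16 at 8 weeks on leaving out single arrays. With the replicate block within age it was 8 (3 higher, 5 lower) at 4 weeks and 9 (8 higher, 1 lower) at 8 weeks, and that block lost no call of a member in KO against WT (Ntrk2 at 4 weeks 2.47, adjusted p = 4.93e-05). Differences that were not called changed sign for Ntrk3 in 8w-WT against 4w-WT with array medians set equal (0.028), for Ngfr in 8w-KO against 4w-KO (0.0247) and Bdnf in 4w-KO against 4w-WT (0.02) without the arrays with Acta1 above 10. On leaving out single arrays, Ntrk2 in 8w-WT against 4w-WT ran from -0.39 to 0.11 and Ntrk3 from -0.11 to 0.0695, Ngfr in 8w-KO against 4w-KO from -0.21 to 0.094 and Bdnf in 4w-KO against 4w-WT from -0.15 to 0.14. The causes were not tested. Setting array medians equal moved the median difference of all genes at 8 weeks to -0.15, against -0.04 as deposited, and Ntrk2 was then 4.80 higher. Bdnf was above background in 1 of the 4 groups, which leaves its differences as bounds or without a fold.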
